A study of Mus musculus with 30 samples.

Results

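The immunoglobulin heavy-chain constant genes code for the part of an antibody's heavy chain that sets its class. The family described here has 8 members, Igha, Ighm, Ighd, Ighg1, Ighg2b, Ighg2c, Ighg3 and Ighe, out of 55573 genes in the deposited count table. Its members were taken by gene symbol, and they were proposed because their read counts in these T cell libraries differed between treatments. The levels, fold changes and calls given for them are therefore a description of that choice and support nothing beyond it.

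RNA was sequenced from naive CD8+ T cells of 8-week-old C57BL/6 mice, isolated from spleen and lymph nodes with magnetic beads. The cells were stimulated for 3 days in serum-free medium with plate-bound antibodies against CD3 and CD28 at 5 µg/ml each. The 6 groups of 5 libraries were Furin KO and WT cells with TGFB1 at 0.5 ng/ml, KO and WT cells with IL12 at 10 ng/ml, and KO and WT cells with no added cytokine. The study compared KO with WT cells in each condition, and each cytokine with no cytokine in each genotype.

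All groups shared the strain, the age and the antibody stimulation, and each held 4 female libraries and 1 male library. Libraries are named by the number in their titles, 63, 68, 70, 73 and 74 for KO and 62, 67, 71, 72 and 75 for WT, where 62 and 63 are the males. The labels do not say that a number marks a separate mouse, so the spread between libraries may be partly technical. They also do not give the deleted part of Furin, which codes for a protease that cuts precursor proteins. Furin read 65.9 to 90.1 CPM (the counts of a gene scaled to a common library size) in KO and 73.8 to 93.0 CPM in WT libraries with TGFB1. With IL12 it read 120 to 463 CPM (median 161) in KO and 161 to 532 CPM (median 484) in WT libraries, and without cytokine 31.5 to 33.8 CPM in KO and 28.8 to 38.4 CPM in WT libraries. The KO and WT libraries overlapped in all 3 conditions, so no single library could be checked by the level of the gene, and KO stands here for the libraries labelled KO. Library totals ran from 7306151 to 15502443 counts.

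Antibody genes are assembled from V, D and J segments in B cells, and the joined segments are first spliced to the constant gene Ighm or Ighd, which gives IgM and IgD. A switch to IgG, IgE or IgA deletes Ighm and the DNA that follows it, up to a later constant gene. Before a switch, a B cell transcribes the target constant gene from its own upstream promoter as a germline transcript that codes for no antibody, and TGFB1 induces the germline transcript of Igha through SMAD and RUNX factors. T cells assemble T cell receptors in place of antibodies.

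In GENCODE vM21 on GRCm38, the 8 genes lie on the minus strand of chromosome 12 within 167.9 kb, all annotated as immunoglobulin constant genes. In the direction of transcription the order is Ighm (113418558 to 113422730), Ighd (113406604 to 113416324), Ighg3 (113356224 to 113361232), Ighg1 (113325240 to 113330523), Ighg2b (113302965 to 113307933), Ighg2c (113285325 to 113288932), Ighe (113269260 to 113273248) and Igha (113254830 to 113260236). Igha starts 158.3 kb beyond the end of Ighm, and Ighd starts 2.2 kb beyond it. The first 90 bases of the first exon, which codes for the first constant domain, are shown for the 3 members with enough counts to be tested. The capitals mark the first 12 bases, where the exon is joined by splicing to a V, D and J exon or to a germline first exon. A read that stops inside such an exon does not tell which of these was upstream, and the table gives 1 count per gene.
Igha (chr12:113260147-113260236, minus strand): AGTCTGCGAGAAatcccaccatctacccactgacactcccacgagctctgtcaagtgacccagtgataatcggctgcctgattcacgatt
Ighm (chr12:113422641-113422730, minus strand): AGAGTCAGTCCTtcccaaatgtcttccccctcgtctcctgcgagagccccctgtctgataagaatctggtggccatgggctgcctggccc
Ighd (chr12:113416235-113416324, minus strand): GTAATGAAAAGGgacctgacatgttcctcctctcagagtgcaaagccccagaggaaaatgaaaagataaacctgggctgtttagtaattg

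The IgG genes share short stretches of sequence with each other, so within the family their reads are the ones most open to misassignment. The shared part is small, as the windows below show. The same stretch of Ighg2b and Ighg2c is shown because the pair is the most alike in the family by shared windows, and the capitals mark the 7 bases that differ.
Ighg2b (chr12:113307844-113307933, minus strand): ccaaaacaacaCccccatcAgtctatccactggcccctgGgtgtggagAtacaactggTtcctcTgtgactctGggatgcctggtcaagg
Ighg2c (chr12:113288843-113288932, minus strand): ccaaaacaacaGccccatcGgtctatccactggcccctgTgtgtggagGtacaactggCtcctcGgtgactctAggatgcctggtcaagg
Of all 50-base windows in the transcripts of a gene, 5.49% in Ighg2c, 4.15% in Ighg2b, 1.58% in Ighg3 and 0.393% in Ighg1 also occur in a transcript of another gene. In Igha, Ighm, Ighd and Ighe this share is 0%, so a read of that length within their exons has no second annotated source.

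Nearly all reads of the family came from Ighm, in every treatment. Ighm held 154131 counts over the 30 libraries, which was 96.9% of the family, against 2757 for Igha and 2179 for Ighd. Ighg3 held 26 counts, Ighg1 held 13, Ighg2b held 1, and Ighg2c and Ighe held 0. Genes were tested where filterByExpr of edgeR kept them, and 3 of the 8 members passed that filter on low counts, Igha, Ighm and Ighd. Igha passed it through the libraries with TGFB1. The other 5 were below it, and their values are counts.

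Igha, the constant gene of IgA, was read at 5.15 to 55.6 CPM in cells with TGFB1 and at or near 0 in all other cells. With TGFB1 its level was 17.3, 10.3, 55.6, 31.3 and 24.1 CPM in KO libraries 63, 68, 70, 73 and 74, against 5.15, 31.1, 28.4, 31.6 and 38.1 CPM in WT libraries 62, 67, 71, 72 and 75. KO library 70 was the highest and WT library 62 the lowest, and the genotypes overlapped.

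Without TGFB1 no library had more than 6 reads of Igha. With IL12 the counts were 4, 3, 4, 6 and 1 in KO and 4, 2, 3, 2 and 4 in WT libraries. With no added cytokine they were 1, 1, 0, 2 and 0 in KO and 0, 0, 1, 1 and 0 in WT libraries, in the same order of numbers. The lowest library with TGFB1 had 46 counts, so the libraries with TGFB1 did not overlap with any other.

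Summed over each group of 5, Igha had 1355 counts in KO cells with TGFB1, against 4 in KO cells without cytokine. The ratio of the groups, each relative to its library totals, was 337, with an exact 95% counting interval of 131 to 1240. In WT cells it had 1363 counts with TGFB1, against 2 without cytokine, a ratio of 609 with an interval of 168 to 5030. These intervals cover counting error only. The mean was 27.7 ± 17.4 CPM in KO and 26.9 ± 12.7 CPM in WT cells with TGFB1 (SD, n = 5 each). The log2 fold change of KO against WT there was 0.05 ± 0.34 (SE), and leaving out 1 library moved it to between -0.37 (without KO library 70) and 0.26 (without KO library 68), with -0.22 without WT library 62. The spread of Igha between libraries of 1 genotype was thus wider than the difference between the genotypes.

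The few reads of Igha without TGFB1 were more in sum with IL12 than without cytokine, and Igha was not called in this comparison in either genotype. The level of Igha with IL12 was 0.318 ± 0.181 CPM in KO and 0.33 ± 0.149 CPM in WT cells, against 0.0818 ± 0.0893 CPM in KO and 0.0474 ± 0.065 CPM in WT cells without cytokine (SD, n = 5 each). The ratio of summed counts was 3.58 in KO cells (exact 95% interval 1.18 to 14.6) and 7.05 in WT cells (1.64 to 63.6), on 4 and 2 counts without cytokine. The fitted log2 fold change, which takes in the spread between libraries, was 1.71 ± 1.27 in KO and 2.52 ± 1.5 in WT cells (SE). The KO libraries with and without IL12 overlapped. The WT libraries did not, with at least 0.194 CPM with IL12 and at most 0.12 CPM without cytokine, on few reads in both. All 10 libraries with IL12 had at least 1 read of Igha, and 3 of 5 KO and 2 of 5 WT libraries without cytokine had one. With TGFB1, Igha made up 2.11 to 7.90% of the counts of the family in KO and 0.858 to 4.67% in WT libraries. In the other libraries it made up at most 0.156%.

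**Figure D1:**
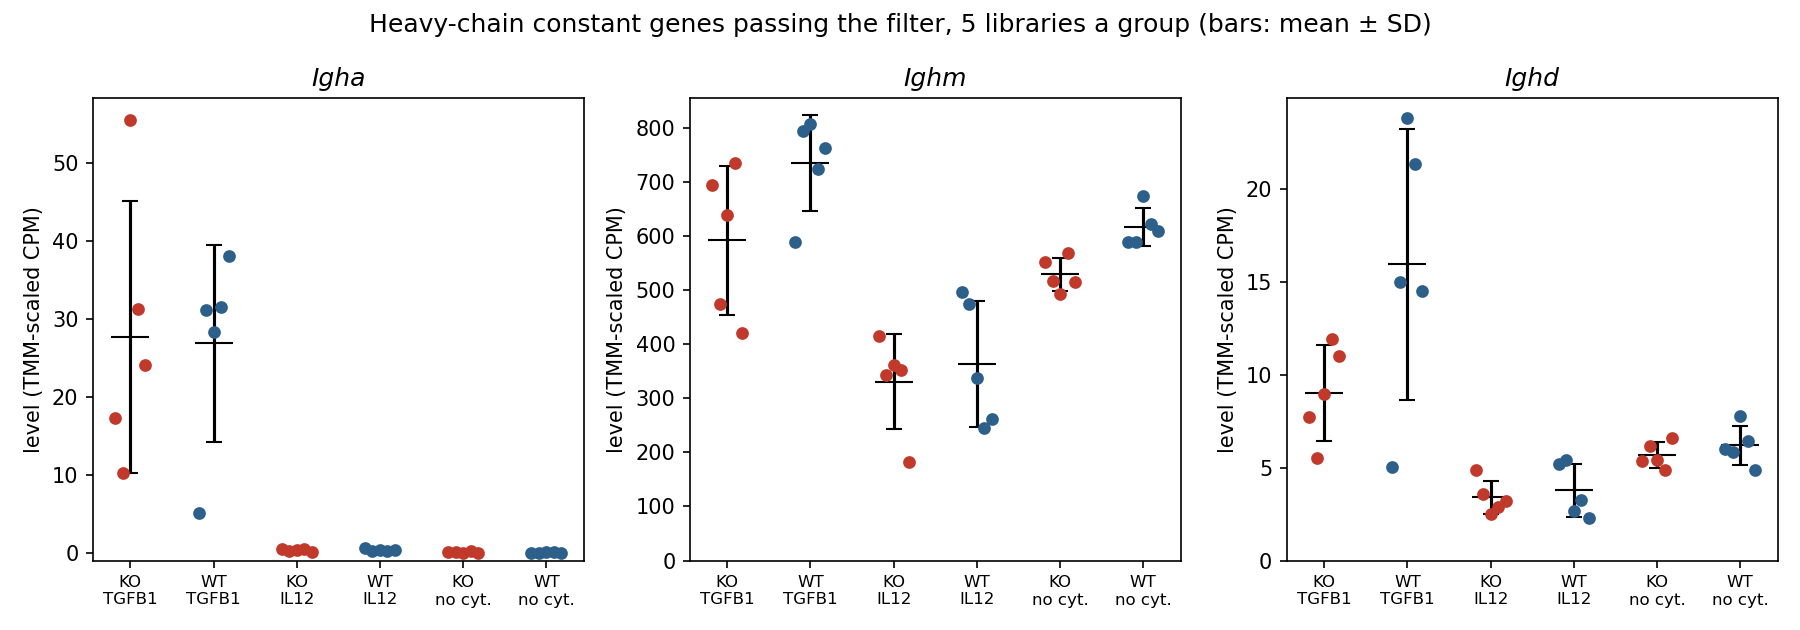
Level of Igha, Ighm and Ighd in each library (TMM-scaled CPM, linear axes; 1 point per library, KO red, WT blue; the bars are the mean and SD of 5). Igha is near 0 in every library without TGFB1, Ighm is lowest with IL12, and Ighd is highest in WT cells with TGFB1.

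Ighm, the constant gene of IgM, was read in all 30 libraries, at 183 to 808 CPM, and was lower with IL12. With IL12 its level was 416, 344, 361, 352 and 183 CPM in KO libraries, against 553, 518, 494, 569 and 516 CPM in the same numbers without cytokine. In WT libraries it was 497, 474, 338, 246 and 262 CPM with IL12, against 589, 589, 675, 623 and 609 CPM without cytokine. In both genotypes every library with IL12 was below every library without cytokine. The log2 fold change was -0.68 ± 0.18 in KO and -0.76 ± 0.18 in WT cells (SE). Fewer cells with the transcript and less of it per cell cannot be told apart in bulk RNA.

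With TGFB1, Ighm was 695, 474, 639, 735 and 422 CPM in KO libraries and 589, 795, 808, 724 and 763 CPM in WT libraries. These ranges overlapped each other and those without cytokine. The log2 fold change of TGFB1 against no cytokine was 0.16 ± 0.18 in KO and 0.25 ± 0.18 in WT cells. KO cells had the lower mean of Ighm in all 3 conditions, at 593 ± 138 against 736 ± 88.1 CPM in WT with TGFB1, 331 ± 87.7 against 364 ± 117 CPM in WT with IL12, and 530 ± 30.3 against 617 ± 35.5 CPM in WT without cytokine (SD, n = 5 each). The genotypes did not overlap without cytokine, with 494 to 569 CPM in the KO libraries and 589 to 675 CPM in the WT ones, and they overlapped with either cytokine. The log2 fold changes of KO against WT were -0.31 ± 0.18 with TGFB1, -0.13 ± 0.18 with IL12 and -0.22 ± 0.18 without cytokine.

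Ighd, the constant gene of IgD and the closest neighbour of Ighm, was read at 2.28 to 23.8 CPM and was highest in WT cells with TGFB1. With TGFB1 its level was 7.70, 5.50, 8.93, 11.9 and 11 CPM in KO libraries and 5.03, 15, 23.8, 21.3 and 14.5 CPM in WT libraries. WT library 62 was the lowest of all 10, and the other 4 WT libraries were above every KO library. The mean was 9.02 ± 2.58 CPM in KO and 15.9 ± 7.29 CPM in WT cells (SD, n = 5 each), a log2 fold change of -0.82 ± 0.26. That difference lost its call without KO library 68 or without WT library 71.

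Without cytokine Ighd was 5.67 ± 0.69 CPM in KO and 6.19 ± 1.05 CPM in WT cells. Against these, the log2 fold change with TGFB1 was 0.67 ± 0.28 in KO and 1.37 ± 0.27 in WT cells. With IL12 the level of Ighd was 3.40 ± 0.899 CPM in KO and 3.77 ± 1.45 CPM in WT cells (SD, n = 5 each), with log2 fold changes of -0.75 ± 0.30 and -0.72 ± 0.30 in KO and WT cells. The IL12 and no-cytokine libraries met at 4.85 CPM in KO cells and overlapped in WT cells. The cytokine comparisons of a genotype share their 5 libraries without cytokine.

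The order of the groups differed between the 3 genes. For Igha both groups with TGFB1 came first and were apart from the rest, followed by WT and KO cells with IL12 and then KO and WT cells without cytokine. For Ighm the order was WT with TGFB1, WT without cytokine, KO with TGFB1, KO without cytokine, WT with IL12 and KO with IL12. For Ighd it was WT and KO with TGFB1, WT and KO without cytokine, and WT and KO with IL12. Apart from the step below TGFB1 for Igha, neighbouring groups overlapped in each of these orders.

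In edgeR's fit across all genes, with a call at an adjusted p below 0.05, the counts of called members among the 3 tested were as follows, with the share of all 11718 tested genes beside each. For KO against WT with TGFB1, 1 member was called (Ighd, lower in KO), against 35.6% of all genes. For KO against WT with IL12 and without cytokine, 0 were called, against 6.78% and 2.10% of all genes. In both of these DESeq2 and limma-voom also called 0, and 0 had an unadjusted p below 0.05. For TGFB1 against no cytokine, 1 member was called in KO cells (Igha, higher), against 24.5%, and 2 in WT cells (Igha and Ighd, higher), against 37.9%. For IL12 against no cytokine, 1 was called in KO cells, against 14.2%, and 1 in WT cells, against 18.9%, in both cases Ighm, which was lower. DESeq2 and limma-voom gave the same number of calls in all 7 comparisons. The members were chosen from these contrasts, so the counts only describe them.

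The IgG and IgE genes were at the limit of detection. Ighg3, an early IgG gene in the order of the locus, had 5 counts in KO and 9 in WT cells with TGFB1, 3 in KO and 6 in WT cells with IL12, and 3 in KO and 0 in WT cells without cytokine. No library had more than 4 of its reads, and 15 of 30 had any. Ighg1, which IL4 induces in B cells, had 4 counts in KO and 3 in WT cells with TGFB1, 4 in KO and 0 in WT cells with IL12, and 2 in KO and 0 in WT cells without cytokine. The single read of Ighg2b was in a KO library with TGFB1. The groups overlapped for Ighg3 and Ighg1, since each group had libraries with no read of them. A count of 0 over a group allows up to 3 counts, or 0.0501 to 0.0675 CPM depending on the group. Ighe, the constant gene of IgE, and Ighg2c, a target of interferon in B cells, had no read in any of the 30 libraries at this depth.

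**Figure D2:**
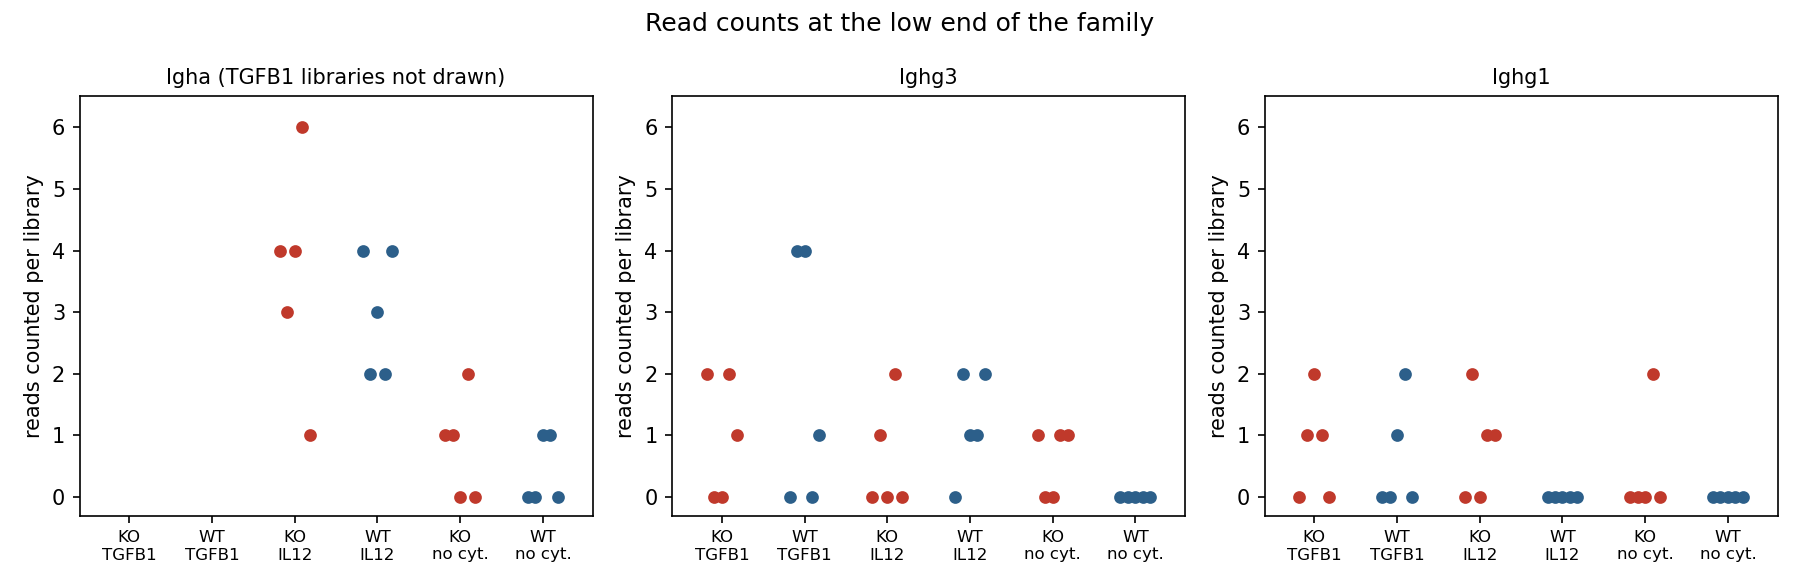
Reads counted per library (1 point per library, KO red, WT blue) for Igha without TGFB1, Ighg3 and Ighg1. Igha reaches 6 reads with IL12 and 2 without cytokine, Ighg3 reaches 4 and Ighg1 reaches 2.

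The genes on both sides of the locus changed with TGFB1 by less than Igha. Of 18 tested ones, 2 rose and 0 fell in KO cells, and 4 rose and 2 fell in WT cells, with median log2 fold changes of 0.12 and 0.19 against 0.01 and 0.02 over all tested genes. Of all tested genes, 13.5% rose and 11% fell with TGFB1 in KO cells, and 19.2% rose and 18.6% fell in WT cells. Tmem121, the nearest tested gene beyond Igha, had a log2 fold change of 0.70 ± 0.27 in KO cells (adjusted p = 0.0581, edgeR) and 0.19 ± 0.31 in WT cells (adjusted p = 0.651). Zfp386, on the far side of the V segments, rose by 0.56 ± 0.19 in KO cells (adjusted p = 0.0299) and by 0.80 ± 0.18 in WT cells (adjusted p = 0.00129) on the log2 scale. Crip1, a LIM domain protein gene, rose by 0.74 ± 0.14 in WT cells (adjusted p = 0.000209). Among the 3 tested constant genes and these 18 neighbours, the fitted log2 fold changes of Igha, 8.17 ± 0.66 in KO and 8.87 ± 0.72 in WT cells, were the largest. They rest on 4 and 2 counts without cytokine, so their size is uncertain. The counting intervals given above leave out the spread between libraries.

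**Figure D3:**
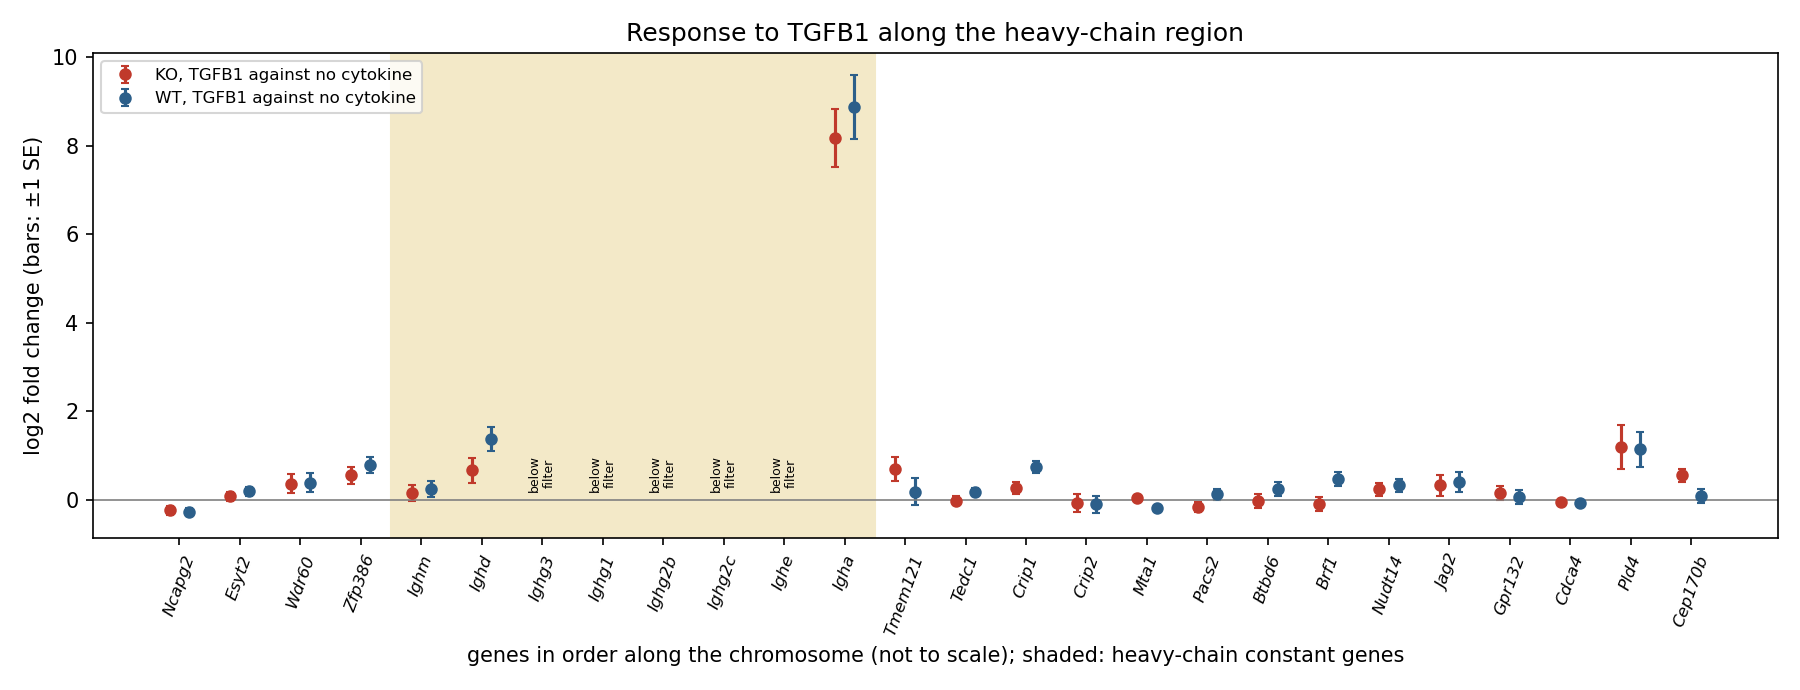
Fitted log2 fold change (bars, 1 SE) of TGFB1 against no cytokine in KO (red) and WT (blue) cells for constant genes (shaded) and tested neighbours, in chromosomal order and not to scale. Igha stands at 8.17 in KO and 8.87 in WT cells, and every other tested gene shown is below 1.5.

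Reads of the variable part of the heavy chain were mostly from J segments. Of 113 V segment genes, 9 had any count, 22 in all, over the 30 libraries. The 17 D segment genes held 147 counts, of which 93 were from Ighd4-1, and the 4 J segment genes held 930 counts. Ighj1 alone had 757 counts and was read in 30 of 30 libraries. V segments thus had 22 counts beside the 154131 of Ighm.

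The summed level of the V, D and J segments was 4.64 ± 1.73 CPM in KO and 4.58 ± 0.481 CPM in WT cells with TGFB1, 1.77 ± 0.645 CPM in KO and 2.38 ± 0.91 CPM in WT cells with IL12, and 4.45 ± 1.60 CPM in KO and 4.97 ± 1.42 CPM in WT cells without cytokine (SD, n = 5 each). With IL12 against no cytokine, a two-sided exact permutation test gave p = 0.00794 in KO cells, the smallest p that 5 against 5 can give, and p = 0.0238 in WT cells. Adjusted over 28 tests of gene classes, these exact p-values were 0.0741 and 0.0833, so neither passed. With TGFB1 the summed level differed from no cytokine by 0.195 CPM in KO cells (exact p = 0.857) and by -0.399 CPM in WT cells (exact p = 0.556).

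Per kb of exon, Ighm was read at a level below that of Trac, the T cell receptor alpha constant gene, in each of the 6 groups. It was above the coreceptor gene Cd8a in each, while most genes of the B cell list were close to 0. On this scale Ighm averaged 176 to 390 CPM per kb over the 6 groups, against 410 to 594 CPM per kb for Trac and 137 to 275 CPM per kb for Cd8a. In CPM not divided by exon length the order differed. Cd8a was then above Ighm in each of the 6 groups. In WT cells Cd8a read 1002 against 736 CPM for Ighm with TGFB1, and 629 against 617 CPM without cytokine. Trac was then below Ighm with TGFB1 and without cytokine, and above it with IL12, in both genotypes. Of 20 B cell markers, 12 had a mean under 0.2 CPM. In all libraries together the surface genes Ms4a1 and Cd22 had 8 and 2 counts, the B cell transcription factor Pax5 had 1, and Cd79a, a chain of the B cell receptor, had 30. Other genes of the list were well above 0. Cd79b, the second signalling chain of that receptor, averaged 6.89 to 16.4 CPM over the 6 groups, Pou2af1 11.3 to 57.9 CPM, Cd72 3.07 to 25.6 CPM and Btk 2.79 to 9.79 CPM. All 13 T cell genes of the list, among them Trac, Cd8a and Cd3e, were tested, and their summed level was 4283 to 7404 CPM over the libraries. Of 14 markers of myeloid and dendritic cells, 7 had a mean under 0.2 CPM and 6 passed the filter. Their summed level was 112 to 168 CPM over the libraries, most of it from Cst3, which averaged 121 to 143 CPM over the 6 groups.

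The B cell markers that passed the filter moved in both directions with TGFB1. Of these 6, with TGFB1 against no cytokine, 2 rose and 2 fell in KO cells, and 1 rose and 2 fell in WT cells. The shares of all tested genes in this comparison were 13.5% higher and 11% lower in KO cells, and 19.2% higher and 18.6% lower in WT cells. Cd72, a coreceptor also made by other blood cells, rose by 2.39 ± 0.27 in KO cells (adjusted p = 1.4e-07, edgeR) and by 2.87 ± 0.27 in WT cells (adjusted p = 9.83e-09) on the log2 scale. The kinase Btk fell in both genotypes, and so did Pou2af1, a coactivator of immunoglobulin genes in B cells, whose log2 fold change was -2.36 ± 0.28 in KO cells (adjusted p = 3.61e-07) and -0.70 ± 0.28 in WT cells (adjusted p = 0.0477). With IL12, where Ighm was lower, Btk was the 1 marker called in each genotype, and it fell. Of all tested genes, 8.49% rose and 5.74% fell with IL12 in KO cells, and 10.5% rose and 8.30% fell in WT cells. For KO against WT cells with TGFB1, where Ighd was lower, Cd79b, Cd72 and Bank1 fell and Btk rose, where 18.3% of all tested genes rose and 17.3% fell. The summed level of the 20 markers was 35.7 to 61.1 CPM in KO and 39.9 to 85.2 CPM in WT libraries with TGFB1, 44.3 to 63.1 CPM in KO and 32.9 to 48.3 CPM in WT with IL12, and 60.5 to 95.5 CPM in KO and 45.1 to 60.4 CPM in WT without cytokine. The T cell genes moved as well, with 8 of 13 lower and 0 higher in KO than in WT cells with TGFB1, and 3 higher and 1 lower with TGFB1 than without cytokine in KO cells, against 8 higher and 0 lower in WT cells. The part of other cells, or of the T cell genes, in the levels of the family was not tested.

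**Figure D4:**
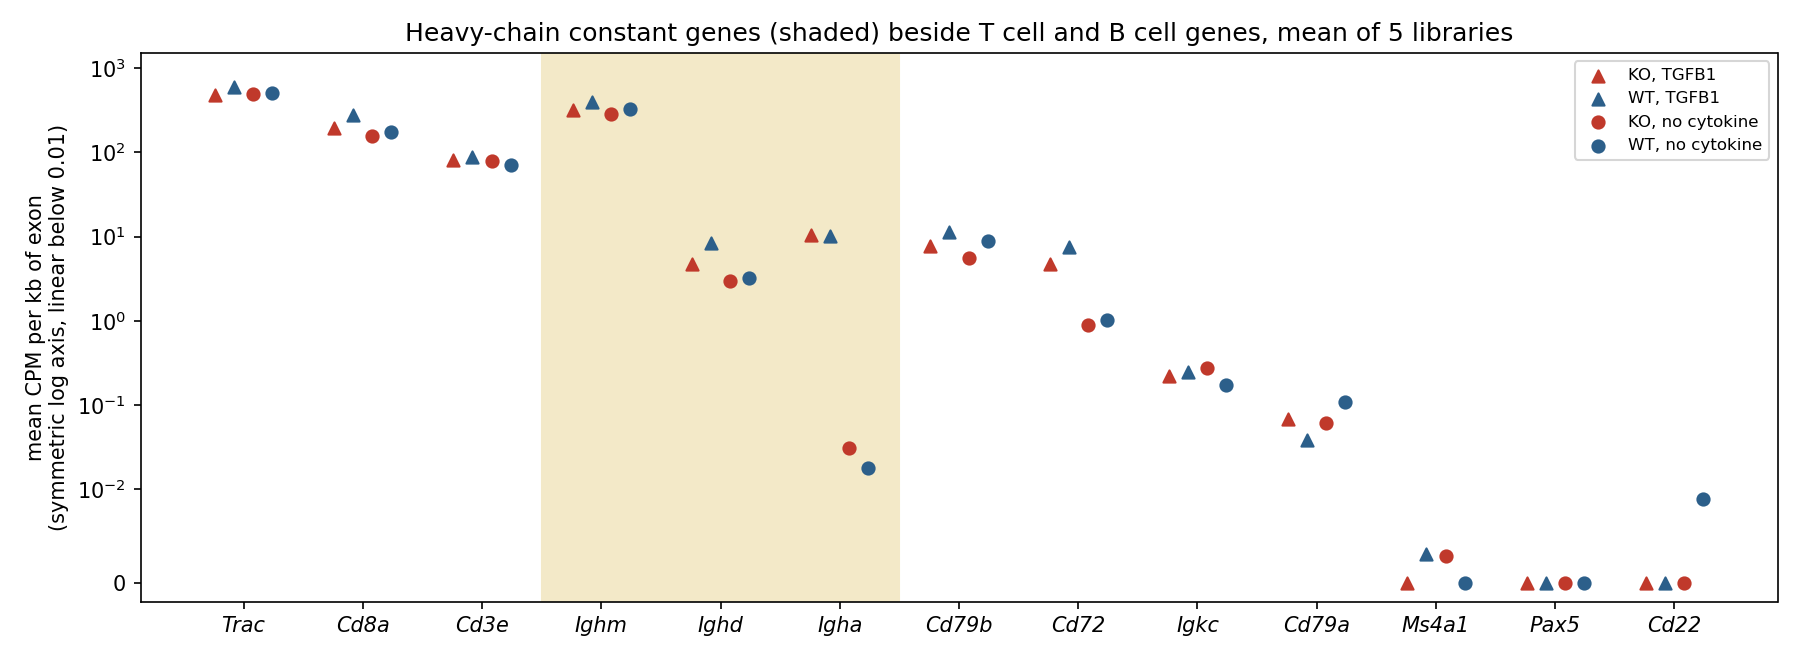
Mean CPM per kb of exon (symmetric log axis, linear below 0.01) of T cell genes, the 3 tested constant genes (shaded) and B cell genes with TGFB1 (triangles) and without cytokine (circles), KO in red and WT in blue. Ighm lies between Trac and Cd8a, and Pax5 is at 0 in all 4 groups.

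Of the constant genes of the light chains, which pair with heavy chains in an antibody, Igkc rose with IL12 and was not called with TGFB1. The lambda constant genes Iglc1 and Iglc4 had no read, and Igkc, the constant gene of the kappa chain, had 125 counts in all. Igkc was 0.119 ± 0.173 CPM in KO and 0.131 ± 0.126 CPM in WT cells with TGFB1, 0.893 ± 0.423 CPM in KO and 0.916 ± 0.927 CPM in WT cells with IL12, and 0.148 ± 0.0567 CPM in KO and 0.0923 ± 0.0517 CPM in WT cells without cytokine (SD, n = 5 each). It rose with IL12 by 2.54 ± 0.75 in KO cells (adjusted p = 0.0201, edgeR) and by 3.21 ± 0.85 in WT cells (adjusted p = 0.00847) on the log2 scale. In the 5 WT libraries with IL12 it had 0, 1, 12, 10 and 22 counts, so the WT groups overlapped. With TGFB1 its log2 fold change was -0.22 ± 1.09 in KO cells (adjusted p = 0.911) and 0.57 ± 1.17 in WT cells (adjusted p = 0.734).

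Genes of plasma cells, which secrete antibody, were in part expressed in these T cells. Of 10 tested markers, 3 rose and 0 fell with TGFB1 in KO cells, and 2 rose and 4 fell in WT cells, where 13.5% of all tested genes rose and 11% fell in KO cells and 19.2% rose and 18.6% fell in WT cells. The 4 that fell in WT cells were the kinase gene Pim2, by 0.75 on the log2 scale (adjusted p = 1.42e-05, edgeR), Xbp1, a transcription factor of secretory cells, by 1.26 (adjusted p = 1.91e-05), Irf4, by 0.70 (adjusted p = 0.00779), and Slamf7, by 0.72 (adjusted p = 0.0124). Jchain, which joins IgA or IgM into polymers, was 2.10 ± 0.68 CPM in KO and 0.595 ± 0.875 CPM in WT cells with TGFB1, against 0.42 ± 0.313 CPM in KO and 0.957 ± 0.401 CPM in WT cells without cytokine (SD, n = 5 each). Its log2 fold change with TGFB1 was 2.28 ± 0.59 in KO cells (adjusted p = 0.00511, edgeR) and -0.72 ± 0.62 in WT cells (adjusted p = 0.375). Between the genotypes with TGFB1, 6 of the 10 markers were higher in KO cells and 0 lower, where 18.3% of all tested genes were higher and 17.3% lower. Jchain was 1 of these 6, higher in KO by 1.84 ± 0.56 (adjusted p = 0.0117). Tnfrsf13b, a receptor for B cell survival factors, rose with TGFB1 by 2.28 ± 0.17 in KO cells (adjusted p = 9.6e-11) and by 1.12 ± 0.17 in WT cells (adjusted p = 2.19e-05).

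The genes that carry the TGFB1 signal to Igha in B cells were expressed, and several changed with the cytokine. Of 15 tested genes of that list, 5 rose and 0 fell in KO cells, where 13.5% of all tested genes rose and 11% fell. In WT cells 5 rose and 1 fell, where 19.2% of all genes rose and 18.6% fell. The receptor gene Tgfbr1 rose by 1.52 ± 0.15 in KO cells (adjusted p = 1.28e-08, edgeR) and by 1.29 ± 0.15 in WT cells (adjusted p = 3.49e-07) on the log2 scale. Smad7, an inhibitor that the pathway induces, rose by 1.13 ± 0.25 in KO cells (adjusted p = 0.0013) and by 1.83 ± 0.25 in WT cells (adjusted p = 3.59e-06). Runx3, a partner of SMAD proteins, rose by 0.62 ± 0.16 in KO cells (adjusted p = 0.005) and by 0.77 ± 0.16 in WT cells (adjusted p = 0.00052).

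Between the genotypes with TGFB1, where Igha had a log2 fold change of 0.05 ± 0.34, 3 of the 15 genes of the same list were higher in KO cells and 5 were lower, where 18.3% of all tested genes were higher and 17.3% lower. Smad7 was 14.5 ± 4.55 CPM in KO and 26.2 ± 9.65 CPM in WT cells, a log2 fold change of -0.85 ± 0.23 (adjusted p = 0.00608, edgeR). Tgfbr2, the second receptor chain, was lower in KO by 1.01 on the log2 scale, with 54.2 ± 14.3 CPM in KO cells and 109 ± 37.3 CPM in WT cells (adjusted p = 0.000478). Smad2, a signal carrier, was higher in KO by 0.50 ± 0.07 (adjusted p = 7.88e-05). With IL12, Runx3 also rose, by 0.71 ± 0.16 in KO cells (adjusted p = 0.00279) and by 0.61 ± 0.16 in WT cells (adjusted p = 0.00748).

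WT library 62 with TGFB1, the 1 male library of its group, was the lowest of its group for Igha, Ighm and Ighd. The same held for genes of the cytokine response and for the T cell gene Cd8a, but not for Ighj1. Sex and library cannot be told apart here. Library 62 had 807 CPM of Cd8a, against 813 to 1188 CPM in the other 4 WT libraries. It had 12.9 CPM of Smad7, against 19.4 to 34.9 CPM in the other 4 WT libraries, and 99.0 CPM of Nt5e, against 265 to 406 CPM. Without it the mean of Igha in WT cells with TGFB1 was 32.3 CPM, that of Ighm 773 CPM and that of Ighd 18.6 CPM. The log2 fold change of Ighd in KO against WT cells was then -1.04.

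Enzymes and other factors of class switching and of the DNA repair it uses were also counted. Of the 29 tested genes of the list, 0 rose and 4 fell with TGFB1 in KO cells, where 13.5% of all tested genes rose and 11% fell. In WT cells 1 rose, the histone gene H2afx, and 11 fell, where 19.2% of all tested genes rose and 18.6% fell. The repair exonuclease gene Exo1 fell in both genotypes, with a log2 fold change of -0.28 ± 0.08 in KO (adjusted p = 0.00951, edgeR) and -0.44 ± 0.08 in WT cells (adjusted p = 0.000128). With IL12, 0 rose and 7 fell in KO cells, where 5.74% of all tested genes fell, and 0 rose and 10 fell in WT cells, where 8.30% fell.

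Some genes of the signals that induce IgG and IgE germline transcripts in B cells changed with IL12, and others were not called. Of 15 tested genes of the interferon, IL4 and CD40 list, 4 rose and 0 fell with IL12 in KO cells, where 8.49% of all tested genes rose and 5.74% fell. In WT cells 6 rose and 2 fell, where 10.5% of all genes rose and 8.30% fell. The IL4 receptor gene Il4ra and Stat6, which carries its signal, were called in neither genotype. Ifng, the gene of interferon gamma, was 637 ± 447 CPM in KO and 795 ± 519 CPM in WT cells with IL12, against 15 ± 8.02 CPM in KO and 9.51 ± 3.33 CPM in WT cells without cytokine (SD, n = 5 each). Its log2 fold change was 5.43 ± 0.51 in KO (adjusted p = 3.4e-08, edgeR) and 6.37 ± 0.53 in WT cells (adjusted p = 5.45e-09). Tbx21, the transcription factor T-bet, rose by 1.62 ± 0.19 in KO (adjusted p = 9.81e-07) and by 1.83 ± 0.19 in WT cells (adjusted p = 1.74e-07). In the same libraries Ighg2c had 0 counts.

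The genes whose levels followed each constant gene most closely were taken from all tested genes by Pearson's r of log2 CPM over the 30 libraries, which share their treatment groups and depth. For Igha the first was Nt5e, which codes for the ectonucleotidase CD73, with r = 0.973. The mean of Nt5e was 323 CPM in KO cells and 289 CPM in WT cells with TGFB1, 10.7 CPM in KO and 12.5 CPM in WT cells with IL12, and 7.75 CPM in KO and 6.58 CPM in WT cells without cytokine. KO library 70, the highest for Igha, was also the highest for Nt5e, at 513 CPM. The next were Cpne3 (r = 0.957), Skil (0.956), a repressor of SMAD proteins, Fam129b (0.956) and the metalloprotease gene Adam12 (0.953).

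Other genes came first for Ighm and Ighd. For Ighm they were the interferon-inducible Ifi203 (r = 0.963), Klf2 (0.961), a transcription factor of resting T cells, Il16 (0.958), Txndc16 (0.955) and Add3 (0.952). The mean of Klf2 was 95.2 CPM in KO cells and 183 CPM in WT cells with TGFB1, 25.2 CPM in KO and 32.1 CPM in WT cells with IL12, and 68.5 CPM in KO and 98.8 CPM in WT cells without cytokine. For Ighd the values of r were lower, with the small GTPase gene Rhog at 0.918, Tob1 at 0.901, Cmtm7 at 0.897, Rbm4b at 0.896 and Btd at 0.892.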

How the data were processed

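The values are raw read counts per gene in the table the authors deposited, 55573 Ensembl genes in 30 libraries. The authors worked with GRCm38 and with STAR, Trim Galore, FastQC and DESeq2 1.24.0, per the submitters' processing notes. Per the labels' protocols, libraries were directional and made after poly(A) purification. Which tool counted the reads, on which strand and with which gene models is not given in the sources used here. Symbols, positions and exon sequences came from GENCODE vM21, and 55394 genes had a symbol.

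Counts were fitted in R 4.3.3 with edgeR 4.0.16 (quasi-likelihood, TMM factors, 1 mean per group over all 30 libraries, two-sided, Benjamini-Hochberg adjustment over all tested genes). The filter filterByExpr, with a minimum count of 10, kept 11718 genes with 99.88% of the counts. A call is an adjusted p below 0.05. The script was tested on simulated data. CPM are counts divided by the TMM-scaled library total, and CPM per kb divides by the exon length. Sums over gene classes were compared by exact permutation in Python 3.11.15 with scipy 1.17.1. Counting intervals are exact at 95%.

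The members and the gene lists were chosen with earlier results of these data known. Named are all members, up to 4 genes per list with the smallest adjusted p in a comparison, and the 5 genes with the highest r (prior count 1). Genes shown beyond these, among them Jchain, Runx3, Tmem121, Igkc and the marker genes at low counts, belong to the same lists and were picked after their values were seen. Some genes of the lists are not reported here. Alternatives were other size factors, no filter, a filter of 1 CPM in 5 libraries, DESeq2 1.42.0, limma 3.58.1 (voom), the compared groups alone, females alone, a replicate block and leaving out each library. No 2 libraries of a group were copies.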

Additional observations from a re-analysis of the deposited data

How the results depend on the processing

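No called fold change of Igha, Ighm or Ighd changed sign under any of the alternatives run. The counts of called members were within 1.5 times the reported ones except as follows, and the cause of each was not tested. Fitting only the 2 groups compared gave 1 called member for KO against WT without cytokine (Ighm), 0 with TGFB1, and 2 for both TGFB1 and IL12 against no cytokine in KO cells. Females alone gave 2 for TGFB1 in KO cells and 2 for IL12 in both genotypes. Leaving out each library in turn gave 0 to 1 called members for KO against WT with TGFB1, 1 to 2 for TGFB1 in KO cells and 1 to 2 for IL12 in each genotype. For KO against WT, the reported fit called 2 of the 6 tested B cell markers without cytokine, where 2.10% of all tested genes were called. It called the same 2 with IL12, where 6.78% were called. In both, Pou2af1 was higher and Cd79b lower in KO cells. With limma-voom 1 marker was called for KO against WT without cytokine. The 2 groups alone gave 1 with TGFB1, 1 with IL12 and 2 for IL12 against no cytokine in KO cells. With no filter 5 were called for TGFB1 and 2 for IL12 in WT cells, and DESeq2 called 2 for IL12 in WT cells. Leaving out libraries gave 0 to 2 markers for KO against WT without cytokine, 1 to 4 with TGFB1, 0 to 2 with IL12, and 1 to 2 for IL12 in KO cells.

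The labels do not say what the numbers in the titles mark. Over 30 pairs of libraries with the same number, the correlation of deviations from the group means had a median of 0.222, ran from -0.034 to 0.430 and was over 0.1 in 26, and 26 of 30 libraries correlated best with one of their own number. These values hint at a shared source. Since not every pair was over 0.1, the reported fit has no block. That fit and the exact tests of gene classes therefore treat libraries of the same number as independent. With these numbers as a replicate block, 2 members were called in KO cells for TGFB1 (Igha and Ighd) and 2 for IL12 (Ighd and Ighm), so Ighd gained a call in both, with log2 fold changes of 0.67 ± 0.20 and -0.74 ± 0.22 (SE), and 2 B cell markers for IL12 in KO cells. No paired fit was possible for KO against WT, which share no number. Depth limits the 5 members below the filter, for which a difference of a few reads was not detectable.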

Other observations

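Receptors that bind antibodies were mostly low in these cells. Of 12 listed genes, 6 had a mean under 0.2 CPM, among them Pigr, the transporter of polymeric IgA, and 4 passed the filter. Fcgrt, the neonatal receptor for IgG, was lower in KO than in WT cells with TGFB1, with 1.06 ± 1.03 CPM in KO cells and 4.70 ± 3.27 CPM in WT cells (SD, n = 5 each), with a log2 fold change of -2.14 ± 0.58 (adjusted p = 0.00564, edgeR). Without cytokine the log2 fold change of Fcgrt in KO against WT cells was -2.22 ± 0.76, and it was not called (adjusted p = 0.111, edgeR). With TGFB1 against no cytokine Fcgrt rose in WT cells by 1.49 ± 0.55 (adjusted p = 0.0326). In KO cells that log2 fold change was 1.58 ± 0.80 and was not called (adjusted p = 0.15). Fcer1g, the signalling chain shared by Fc receptors, fell with TGFB1 in KO cells by 1.66 on the log2 scale (adjusted p = 0.0109). Fcmr, the receptor for IgM, was below the filter, with 63 counts in all, and is named after its values were seen. With IL12 it was 0.0337 ± 0.0461 CPM in KO cells and 0.665 ± 0.538 CPM in WT cells (SD, n = 5 each). With TGFB1 the order was reversed, with 0.415 ± 0.3 CPM in KO cells and 0.102 ± 0.141 CPM in WT cells. Without cytokine it was 0.0179 ± 0.0399 CPM in KO cells and 0.0205 ± 0.0459 CPM in WT cells.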
